A study of Mus musculus with 6 samples.

Results

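V(D)J recombination assembles antibody genes in developing B cells, and 10 genes of that reaction are described here in BCR-ABL1-transformed mouse pre-B cells. They are the cutting genes Rag1 and Rag2, the nucleotide-addition genes Dntt, Polm and Poll, and the joining genes Xrcc4, Xrcc5, Xrcc6, Lig4 and Prkdc. The members were chosen by name, as the genes of these 3 steps, with earlier results of these data known. They were among 19938 genes that the array measured with a probe set naming exactly 1 gene. Each of the 10 had 1 such probe set, so no choice between probe sets was needed.

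The cells came from mice of a 129SvEv x C57BL/6J background aged 5 weeks, were homozygous for floxed Sox4 (Sox4fl/fl) and had been transformed by BCR-ABL1, the tyrosine kinase fusion of Philadelphia chromosome-positive leukaemia. The control group (ERT2, 3 samples) was transduced with the hormone-binding domain of the oestrogen receptor alone. The other group (Cre-ERT2, 3 samples) was transduced with Cre recombinase fused to that domain, which 4OHT (4-hydroxytamoxifen) activates to delete Sox4, a transcription factor of B-cell progenitors. RNA was taken 24 h after 4OHT and each sample went on 1 Affymetrix array. No sample pairs Cre-ERT2 with unfloxed Sox4, so Sox4 loss and Cre activity cannot be told apart, and the labels do not say whether samples of a group were separate cultures, so the p-values cover only variation among these 6 arrays, part of which could be technical.

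In V(D)J recombination the RAG1 and RAG2 proteins together cut the DNA beside the V, D and J segments of antigen receptor genes. The cut ends are held by Ku, a dimer of the products of Xrcc5 and Xrcc6, opened and processed with the kinase encoded by Prkdc, and sealed by DNA ligase IV (Lig4) with its partner XRCC4. Terminal transferase (Dntt) adds untemplated nucleotides to the ends before they are sealed, and its relatives polymerase mu (Polm) and polymerase lambda (Poll) fill gaps. The joining genes serve break repair in cells of all kinds, whereas Rag1, Rag2 and Dntt are used by developing lymphocytes.

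Rag1 and Rag2 fell, Dntt rose and Polm fell in the Cre-ERT2 cells, and Poll and all 5 joining genes had adjusted p-values above 0.05. A gene was called where limma's adjusted p, corrected over all 35556 probe sets, was under 0.05. By that rule 1 of the 10 members rose, where 4.38% of all genes did, and 3 fell, where 3.72% of all genes did. Thus 4 of 10 were called beside 8.1% of all genes. Because the members were chosen with earlier results of these data known, these shares are a description and not independent evidence. Over all probe sets, named or not, 3.21% rose and 2.84% fell. The groups did not overlap in 7 members, with 4 higher and 3 lower, whereas over all genes 28.3% had groups apart, 17.5% with higher and 10.8% with lower Cre-ERT2 values. The difference between the 3 roles was not itself tested. Where the test asked for a change above 1.5-fold, Rag2 and Dntt passed and Rag1 and Polm did not, nor did 20 of the called genes named below, among them Foxo1, Lef1, Gfi1, Vpreb2, Iftap, Prr5l, Vcan and Fcgr1.

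Because Rag2, Rag1 and Dntt are the lymphocyte genes of the set and all 3 were called, their promoters are shown as the 250 bases before each start in RefSeq (build GRCm38.p6), each 5′ to 3′ on the gene's own strand. Capitals mark E-boxes, the CANNTG sites that E proteins such as E2A can bind, and TGGGAA, a core of Ikaros sites. Rag2 lies at chr2:101624462-101624711 on the plus strand, Rag1 at chr2:101649533-101649782 on the minus strand, and Dntt at chr19:41029025-41029274 on the plus strand.
Rag2: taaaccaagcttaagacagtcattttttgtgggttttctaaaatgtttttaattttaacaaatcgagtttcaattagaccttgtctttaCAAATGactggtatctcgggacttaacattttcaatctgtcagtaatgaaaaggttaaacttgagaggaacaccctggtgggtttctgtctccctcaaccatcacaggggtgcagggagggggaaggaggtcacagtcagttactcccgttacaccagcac
Rag1: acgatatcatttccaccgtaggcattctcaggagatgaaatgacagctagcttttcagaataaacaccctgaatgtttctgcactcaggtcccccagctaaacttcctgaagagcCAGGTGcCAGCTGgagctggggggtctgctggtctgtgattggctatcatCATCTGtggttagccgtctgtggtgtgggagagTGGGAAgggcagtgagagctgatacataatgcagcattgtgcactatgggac
Dntt: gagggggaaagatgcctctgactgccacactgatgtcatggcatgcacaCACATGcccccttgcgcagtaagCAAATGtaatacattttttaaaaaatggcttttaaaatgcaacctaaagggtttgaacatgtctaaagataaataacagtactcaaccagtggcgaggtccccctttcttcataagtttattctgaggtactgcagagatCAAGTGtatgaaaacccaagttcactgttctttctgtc

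Searched on both strands with the 50 bases after the start included, the 3 windows shared an E-box, which 72.3% of the 32851 promoter windows of the table also hold. CAGGTG, an E-box that E2A prefers and thus a special case of CANNTG, was found in the Rag1 window alone, 135 bases before the start, and in 20.2% of all windows. TGGGAA was in the Rag1 window, 52 bases before the start, and in 25.6% of all windows. The SOX-type letters AACAAT and AACAAAG were in none of the 3 windows and in 10.7% and 5.85% of all windows, and the FOXO letters TGTTTAC were in none of the 3 and in 3.65% of all. These counts describe letters in a short window and say nothing about binding elsewhere. RefSeq windows matched 8 of the 10 members (9 windows, since Lig4 has 2). Among them AACAAAG occurred once, in the Xrcc5 window. The Sp1 letters GGGCGG were in 4 of the 9 windows, at Polm, Xrcc4, Xrcc6 and Lig4, and in 35.7% of all windows.

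Sox4, the targeted gene (probe set 10408450), read 1459, 1372 and 1237 in the ERT2 arrays and 599, 541 and 499 in the Cre-ERT2 arrays, a difference of -1.31 on the log2 scale (SE 0.091, limma adjusted p = 0.000434). Whether these probes fall inside the floxed region was not determined here. Across the series, array medians lay between 273 and 279, and the median gene differed by 0.021 on the log2 scale between groups, far less than the differences of the called members. Control replicate 2 stood farthest from the other controls, with SDs of log2 differences of 0.231 and 0.242, against 0.184 between replicates 1 and 3.

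Markers of pre-B cells were present at high intensity, and no marker of pre-B or T cells, the lineages that use Rag1, Rag2 and Dntt, was called in the fit used here. Of 10 pre-B markers 9 were measured and 0 were called in either direction, with differences from -0.22 to 0.039. The lowest was that of Pax5, the B-lineage commitment factor, whose Cre-ERT2 arrays all lay below the controls (limma adjusted p = 0.0552) and which was called lower in 8 of 13 alternative settings. The immunoglobulin-associated receptor chain gene Cd79a had mean intensities of 11788 and 11234 in the ERT2 and Cre-ERT2 groups. Of 10 T-cell markers 0 were called, and their summed intensity was 1830 to 1966 in ERT2 arrays and 1820 to 1969 in Cre-ERT2 arrays. Of 8 myeloid markers 2 were higher and 1 lower: Lyz2, the lysozyme of phagocytes, by 1.40 (SE 0.108), Fcgr1, an Fc receptor, by 0.64 (SE 0.0568), and Itgam, an integrin chain of myeloid cells, by -0.49 (SE 0.076). The summed myeloid intensity was 1459 to 1525 in ERT2 arrays and 2013 to 2198 in Cre-ERT2 arrays, and without Lyz2 the other 7 summed to 1147 to 1151 and 1177 to 1216. In that sum of 7 the rise of Fcgr1 and the fall of Itgam work against each other. The myeloid genes Mpo, Elane, Csf1r, Cd14 and Csf3r were not called. In Mpo (0.13) and Cd14 (0.14) all Cre-ERT2 arrays nevertheless lay above all controls. This held in 4 of the 8 myeloid markers and in 17.5% of all genes. Itgam's call ended without ERT2 replicate 1 or Cre-ERT2 replicate 2 (highest adjusted p = 0.0574). Of 6 natural killer, 4 measured erythroid and 6 stromal markers 0 were called. Of 5 measured progenitor markers Flt3, a cytokine receptor of early progenitors, was higher by 0.34, a call that ended on leaving out any of the 6 arrays (adjusted p from 0.0516 to 0.152). RMA intensities have no zero, so no marker can be said to be absent. The part of the myeloid and Flt3 shifts in the results below was not tested.

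Rag1 encodes the recombinase subunit with the catalytic centre. Its probe set (10485372) read 1332, 1386 and 1048 in ERT2 replicates 1, 2 and 3 and 655, 719 and 646 in Cre-ERT2 replicates 1, 2 and 3. Each Cre-ERT2 array lay below each control, and the controls were spread more widely, with replicate 3 the lowest of them. The group means were 1255 ± 182 (SD, n = 3) and 673 ± 39.9 (SD, n = 3), so that the Cre-ERT2 mean was 53.6% of the control mean. On the log2(intensity + 1) scale used for every difference here, Rag1 differed by -0.89 (SE 0.114, 95% interval -1.16 to -0.62, limma adjusted p = 0.00595). In bulk RNA a smaller share of cells with Rag1 and less Rag1 RNA per cell cannot be told apart, which holds for every gene below.

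Rag2 encodes the partner subunit, which reads a histone mark of active chromatin. Its probe set (10474105) read 584, 598 and 607 in the ERT2 arrays and 219, 262 and 223 in the Cre-ERT2 arrays. The controls lay close together and far above all 3 Cre-ERT2 arrays. Means were 596 ± 11.5 (SD, n = 3) and 235 ± 23.6 (SD, n = 3), or 39.4% of the control mean. The difference was -1.35 (SE 0.0773, 95% interval -1.53 to -1.16, limma adjusted p = 0.000214), and 93 of 19938 genes had a larger fall.

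Dntt, whose product lengthens the junctions of heavy-chain genes with untemplated bases, went the other way. Its probe set (10463123) read 783, 873 and 712 in the ERT2 arrays and 2149, 1912 and 1888 in the Cre-ERT2 arrays. All Cre-ERT2 arrays lay above all controls, with Cre-ERT2 replicate 1 the highest. The mean went from 789 ± 80.5 (SD, n = 3) to 1983 ± 144 (SD, n = 3), 2.51-fold. The difference was 1.33 (SE 0.0914, 95% interval 1.11 to 1.55, limma adjusted p = 0.000412), and 54 genes had a larger rise.

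**Figure D1:**
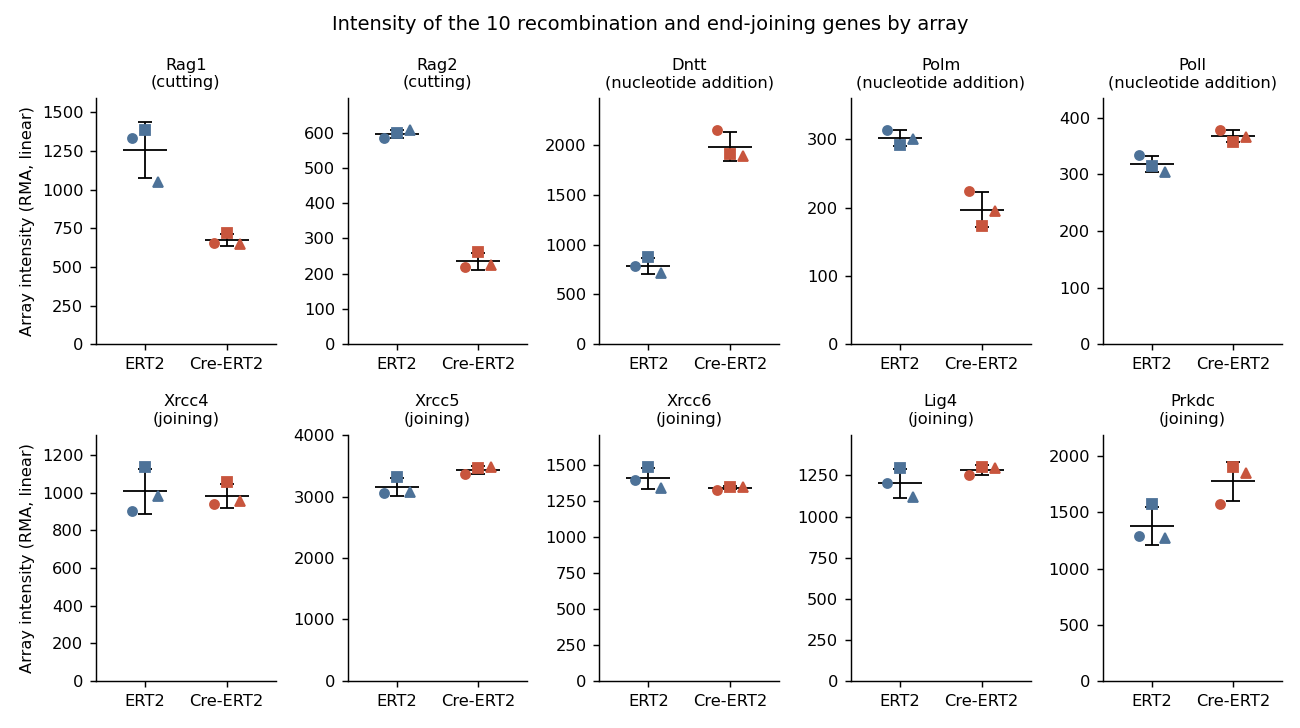
Deposited intensity (linear, y axis from 0) of each member gene on the 3 ERT2 arrays (blue) and 3 Cre-ERT2 arrays (red), with circles, squares and triangles for replicates 1, 2 and 3 and black bars for mean ± SD. Rag1, Rag2 and Polm are lower and Dntt is higher in all 3 Cre-ERT2 arrays, while the groups overlap in Xrcc4, Xrcc6 and Lig4.

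The relatives of Dntt differed from each other in direction. Polm, whose product fills gaps during light-chain joining in the mouse, had a probe set (10384020) that read 314, 291 and 301 in the ERT2 arrays and 224, 173 and 195 in the Cre-ERT2 arrays. The groups did not overlap, and here the Cre-ERT2 arrays were the more widely spread. The means were 302 ± 11.3 (SD, n = 3) and 197 ± 25.9 (SD, n = 3), a difference of -0.62 (SE 0.098, 95% interval -0.86 to -0.38, limma adjusted p = 0.0146). Of the 4 called members Polm was the one whose call ended when an array was left out, namely without ERT2 replicate 1, ERT2 replicate 3 or Cre-ERT2 replicate 3 (adjusted p = 0.0674, 0.0619 and 0.0678).

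Poll, whose product fills gaps at heavy-chain joints in the mouse, read 334, 316 and 305 in the ERT2 arrays and 378, 357 and 366 in the Cre-ERT2 arrays (probe set 10468049). All 3 Cre-ERT2 arrays were above all 3 controls, by a small margin. The difference of 0.21 (SE 0.0547, 95% interval 0.076 to 0.34) did not pass (limma adjusted p = 0.0949). It did pass where fewer features were tested, as in the probe sets with 1 gene (adjusted p = 0.039).

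None of the joining genes passed the test. Xrcc5, which encodes the Ku80 subunit, read 3061, 3317 and 3074 in the ERT2 arrays and 3359, 3462 and 3484 in the Cre-ERT2 arrays (probe set 10347232), and all 3 Cre-ERT2 values lay above the controls. Its difference was 0.13 (SE 0.0528, 95% interval -0.0013 to 0.25, limma adjusted p = 0.2996). Xrcc6, which encodes the Ku70 subunit, read 1395, 1490 and 1345 against 1332, 1352 and 1351 (probe set 10425632), and the groups overlapped. Its difference was -0.067 (95% interval -0.20 to 0.063, limma adjusted p = 0.65).

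Lig4, the ligase itself, read 1201, 1292 and 1116 in the ERT2 arrays and 1251, 1303 and 1294 in the Cre-ERT2 arrays (probe set 10576946), a difference of 0.094 (95% interval -0.062 to 0.25, limma adjusted p = 0.578). Xrcc4, its stabilising partner, read 905, 1138 and 980 against 940, 1056 and 955 (probe set 10410947), a difference of -0.030 (95% interval -0.26 to 0.20, limma adjusted p = 0.937). In both genes the groups overlapped. The 95% intervals of Xrcc4, Xrcc5, Xrcc6 and Lig4 all lay within -0.26 to 0.25, so falls as large as those fitted for Rag1, Rag2 and Polm lie outside them, which is a statement about intervals and not a test that the genes are unchanged.

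Prkdc, the catalytic subunit of DNA-dependent protein kinase, had the widest interval of the joining genes. Its probe set (10433797) read 1289, 1573 and 1273 in the ERT2 arrays and 1578, 1907 and 1847 in the Cre-ERT2 arrays. The groups did not overlap, but ERT2 replicate 2 and Cre-ERT2 replicate 1 almost met. The difference was 0.37 (SE 0.11, 95% interval 0.10 to 0.63), with limma adjusted p = 0.138, and it passed where only probe sets with 1 gene were tested (adjusted p = 0.040). Without ERT2 replicate 2, the highest control, the difference was 0.47 (adjusted p = 0.0505).

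**Figure D2:**
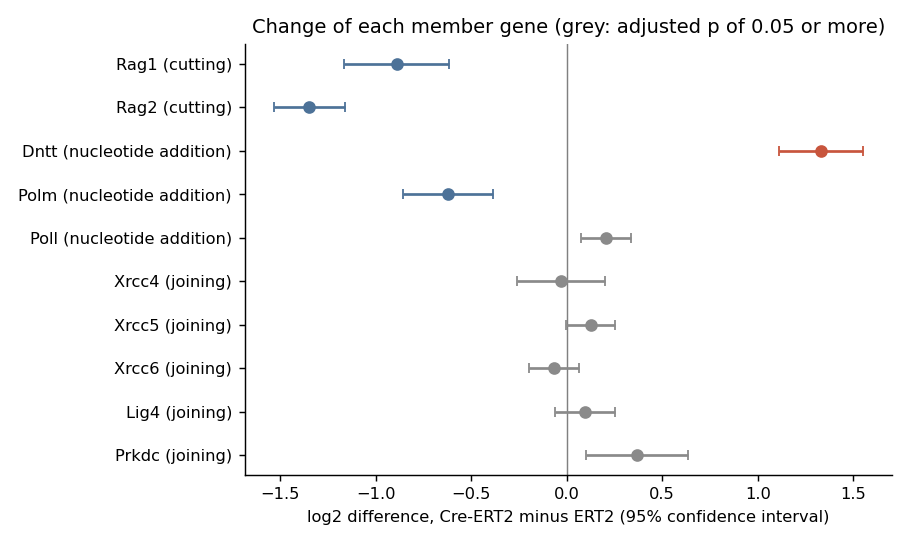
Log2 difference, Cre-ERT2 minus ERT2, of each member gene (points) with limma's 95% confidence interval (bars), blue where lower, red where higher and grey where adjusted p was 0.05 or more. Rag2 and Dntt lie at -1.35 and 1.33, on opposite sides of 0, and the 5 joining genes lie between -0.067 and 0.37.

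By role, both cutting genes fell, the nucleotide-addition genes were split into 1 higher, 1 lower and 1 not called, and 0 of the 5 joining genes were called. With 8.1% of all genes called, a count of 0 among 5 does not set the joining genes apart. In 2 of the 5, Xrcc5 and Prkdc, all Cre-ERT2 arrays lay above all controls, as in 17.5% of all genes. Across the 10 members the median difference was 0.032, beside 0.021 over all genes. Among the controls, replicate 2 gave the highest value in all 5 joining genes and in 7 of the 10 members, and it is the array that stood farthest from its group. Within the Cre-ERT2 group, replicate 1 gave the lowest value in all 5 joining genes, and replicate 2 gave the highest in each of them but Xrcc5.

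Differences between members within 1 array cancel a shift that an array gives to both genes alike. The log2 value of Dntt minus that of Rag2 was 0.42, 0.54 and 0.23 in the ERT2 arrays and 3.29, 2.86 and 3.07 in the Cre-ERT2 arrays. The groups stood far apart, and the change of 2.68 means that the Dntt to Rag2 ratio was 6.39-fold higher in Cre-ERT2 cells. Dntt minus Rag1 changed by 2.22, a 4.66-fold higher ratio. Dntt minus Polm, both of the same polymerase family, changed by 1.95, and Polm minus Poll changed by -0.83.

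The fitted falls of Rag1 and Rag2 also differed in size. Rag2 minus Rag1 was -1.19, -1.21 and -0.79 in the ERT2 arrays and -1.57, -1.45 and -1.53 in the Cre-ERT2 arrays, a change of -0.46. The groups did not overlap, although ERT2 replicate 3, the array with the lowest control value of Rag1, stood apart from the other controls. Xrcc5 minus Xrcc6, the Ku pair, changed by 0.19, from 1.16 ± 0.030 to 1.35 ± 0.016 (SD, n = 3 each). Lig4 minus Xrcc4 changed by 0.12 with overlapping groups (exact two-sided permutation p = 0.2). The other 6 of these 7 differences each gave an exact permutation p of 0.1, the smallest that 3 arrays against 3 allow (0.117 adjusted over the 7), so none can pass 0.05 in this design.

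**Figure D3:**
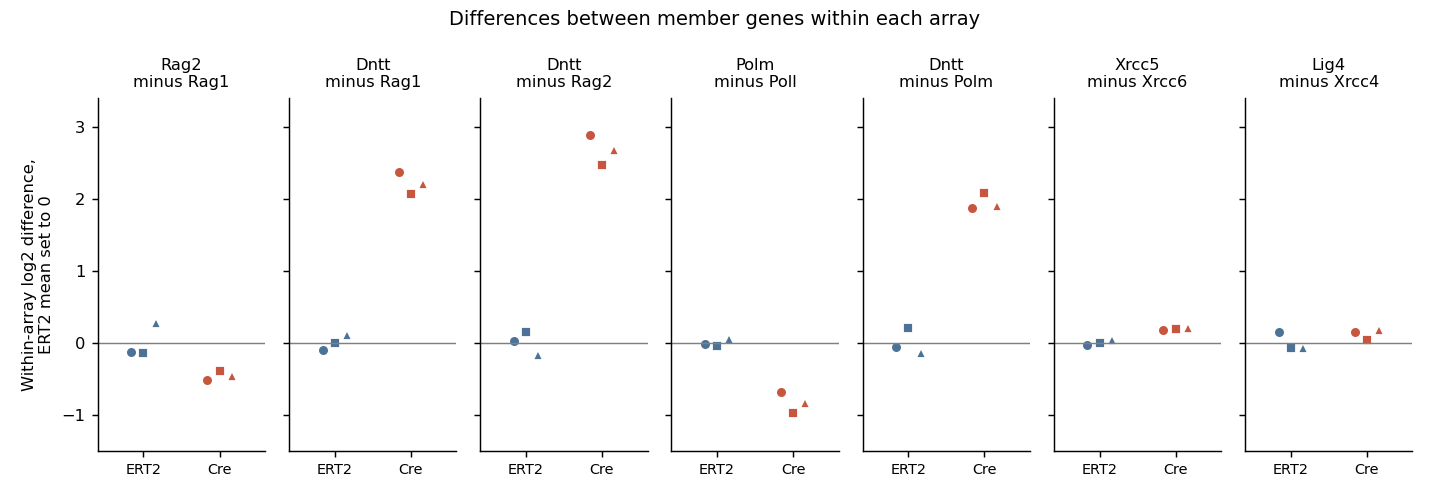
Difference of log2 values between pairs of member genes within each array (y axis, with the ERT2 mean of each pair set to 0) for the ERT2 arrays (blue) and Cre-ERT2 arrays (red), with circles, squares and triangles for replicates 1, 2 and 3. Dntt minus Rag2 shows the largest change of the 7 pairs, 2.68, and Lig4 minus Xrcc4 is the pair whose groups overlap.

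Over 4 lists of other end-joining and break-repair genes 3 of 39 measured genes were called, 7.69%, which is near the 8.1% of all genes. In a list of classical end-joining genes outside the members, which also held the RAG helper genes Hmgb1 and Hmgb2, 9 were measured. Of these 1 rose and 1 fell, with a median difference of 0.014. Nhej1, the XLF protein that bridges the ligase complexes, rose by 0.24 (SE 0.0528, limma adjusted p = 0.0488), and Hmgb1, a chromatin protein that helps RAG proteins bend DNA, fell by 0.28 (SE 0.0574, limma adjusted p = 0.0428). Hmgb2, which can take its place, differed by -0.0075. Among 13 genes of break sensing and end protection 0 rose and 1 fell, H2ax, the histone variant phosphorylated at breaks, by 0.24 (SE 0.0517, limma adjusted p = 0.0476). These calls were close to the threshold: whichever array was omitted, Hmgb1 and H2ax no longer passed (adjusted p from 0.0784 to 0.192), and Nhej1 passed only on omission of ERT2 replicate 2 (0.0331, otherwise up to 0.193).

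None of 7 genes of alternative end joining (median 0.030) and none of 10 genes of homologous recombination (median 0.062) was called. Parp1, a break sensor of the alternative route, differed by 0.23 (limma adjusted p = 0.0666) and Brca2, a tumour suppressor gene of homologous recombination, by 0.26 (limma adjusted p = 0.205). Parp1 was called higher in 7 of 13 alternative settings. Rad51c, the gene of smallest p in the homologous recombination list, differed by -0.19 (limma adjusted p = 0.107) and was called lower in 6 of 13. Its Cre-ERT2 arrays all lay below the controls, as in 10.8% of all genes. Of 8 measured genes of class switching and hypermutation, the later steps of antibody diversification, 0 were called (median 0.10), beside 8.1% of all genes. Of 7 measured genes of proliferation and RAG2 protein turnover 0 were called, with differences from -0.082 to 0.0056. Beside the 8.1% of all genes, that count does not set them apart. Among them were Skp2, the ligase subunit that marks RAG2 for destruction, and the proliferation gene Mki67. In 2 of the 7, Skp2 and the proliferation gene Top2a, all Cre-ERT2 arrays lay below all controls, as in 10.8% of all genes.

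Of 27 transcription factors of B-lineage cells, listed for their roles at the Rag and Dntt loci or in early B cells, 2 rose and 4 fell (median -0.046). Over all genes 4.38% rose and 3.72% fell. The list was chosen with earlier results of these data known, and its count was not tested against those shares. Foxo1, which activates Rag transcription in developing B cells, read 2981 ± 139 (SD, n = 3) in ERT2 and 2094 ± 67.9 (SD, n = 3) in Cre-ERT2 cells, a difference of -0.51 (SE 0.0562, limma adjusted p = 0.00317). Its relative Foxo3 rose by 0.39 (SE 0.0568). Lef1, an HMG-box factor of early lymphocytes, and Gfi1, a zinc-finger repressor, fell, with differences of -0.49 (SE 0.0498) and -0.60 (SE 0.067). The other called members were Runx1 (0.25) and the zinc-finger gene Zfp608 (-0.38), and both were named after their values were seen. On omission of Cre-ERT2 replicate 2 or 3 Foxo3 no longer passed (adjusted p = 0.0542 and 0.0515). Runx1 passed only on omission of ERT2 replicate 2 and Zfp608 only on omission of ERT2 replicate 3 (adjusted p otherwise up to 0.139 and 0.123). Ikzf1, which encodes Ikaros, Tcf3, which encodes E2A, and Ebf1 differed by -0.17, -0.14 and -0.031 and were not called.

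Of 9 listed genes of the immunoglobulin loci and the surrogate light chain, 5 were measured through a single-gene probe set. Of these 1 rose, where 4.38% of all genes did. That gene was Vpreb2, a surrogate light chain gene that is not itself rearranged, with a difference of 0.49 (SE 0.052, limma adjusted p = 0.00270). Ighm, the mu heavy chain gene and the one measured gene of a rearranging locus, differed by -0.25 (limma adjusted p = 0.0677). Its mean intensities, 295 in the ERT2 and 249 in the Cre-ERT2 group, were near the array medians of 273 to 279. Over the alternative settings that kept all arrays, its difference ran from -0.27 to -0.15. Vpreb1 and Igll1 differed by 0.039 and 0.014. The constant regions of the light chains were not analysed here.

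**Figure D4:**
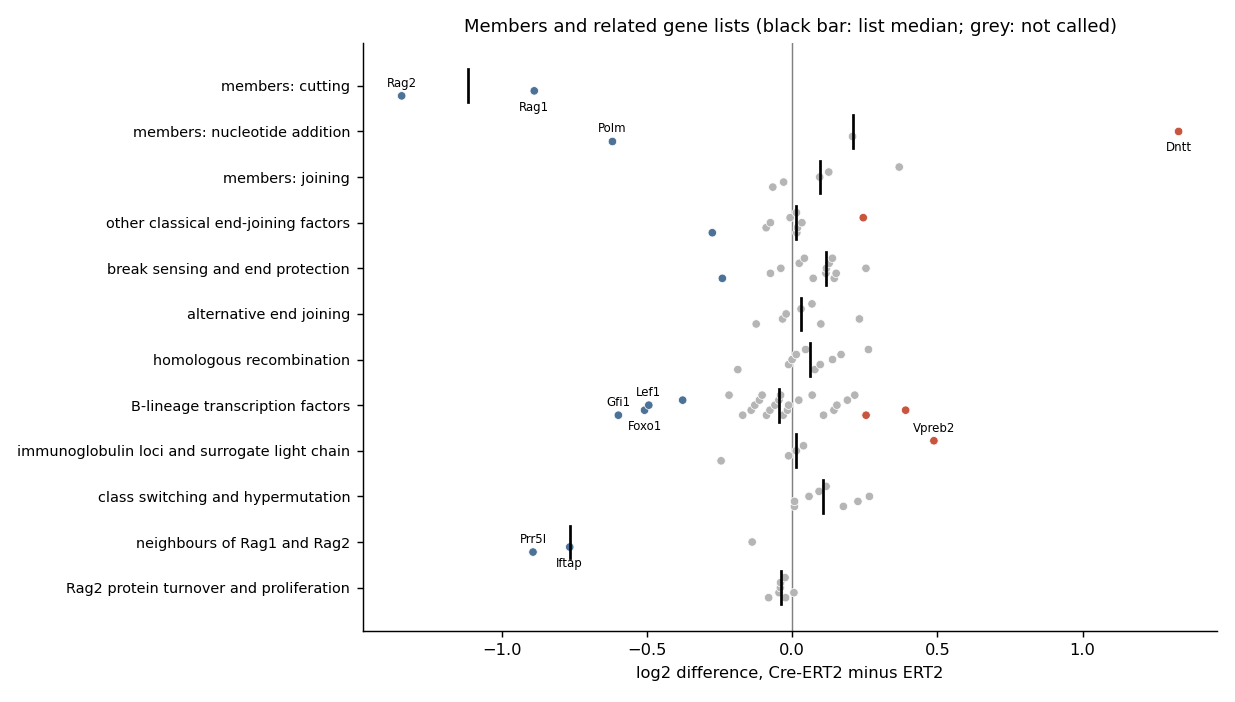
Log2 difference, Cre-ERT2 minus ERT2, of each measured gene (points) of the members and of 9 related lists, red where called higher, blue where called lower and grey where not called, with a black bar at each list's median. The cutting genes, Polm, Iftap and Prr5l lie farthest to the left and Dntt farthest to the right, and no joining gene is coloured.

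Rag1 and Rag2 lie side by side on chromosome 2, in convergent orientation, and their neighbours were examined next. In the gene table the order is Iftap, Rag2, Rag1, Traf6 and Prr5l, and Iftap overlaps Rag2. Iftap, a gene of cilium transport, read 94.7 ± 11.8 (SD, n = 3) in the ERT2 arrays and 55.0 ± 3.18 (SD, n = 3) in the Cre-ERT2 arrays, a difference of -0.77 (SE 0.0959, limma adjusted p = 0.00533). Prr5l, which encodes a binding partner of mTOR complex 2, differed by -0.89 (SE 0.0973, limma adjusted p = 0.00295). Its means were 190 in the ERT2 and 102 in the Cre-ERT2 arrays. Traf6, a ubiquitin ligase of innate signalling that lies between Rag1 and Prr5l, differed by -0.14 (limma adjusted p = 0.162). All 3 neighbours had lower values in each Cre-ERT2 array than in any control. On the far side of Iftap, Lrrc4c, a netrin-G ligand, rose by 2.83 (SE 0.123, limma adjusted p = 8.31e-05). It read 61.7 ± 8.61 (SD, n = 3) in the ERT2 arrays and 445 ± 50.7 (SD, n = 3) in the Cre-ERT2 arrays. Its control values, like all values of Iftap and Prr5l, lay below the array medians of 273 to 279. Iftap, Traf6 and Prr5l thus lay in the direction of the Rag pair, and Lrrc4c lay in the other. Neighbours were taken by their order on the chromosome, whatever their distance, and distances are not given here.

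The same count was made around the other 8 members after the Rag neighbours had been seen. Of 32 measured genes, the 2 protein-coding neighbours on each side of each member, 1 was higher and 2 were lower. Over all genes 4.38% were higher and 3.72% lower, so counts this small do not set these neighbours apart. Around Rag1 and Rag2, 1 of 4 neighbours was higher and 2 were lower, a contrast that was not tested. Zfp518a, a zinc-finger gene and the second neighbour of Dntt, differed by -1.34 (SE 0.0772, limma adjusted p = 0.000215), a fall beside the rise of Dntt. Blnk, the adaptor gene that lies between them, differed by -0.088 (limma adjusted p = 0.424). The remaining calls were Vcan beside Xrcc4 (-0.57, SE 0.074) and Pecr near Xrcc5 (0.34, SE 0.0729). Vcan was dim, with means of 140 in the ERT2 and 93.9 in the Cre-ERT2 arrays. Pecr passed only on omission of ERT2 replicate 2 or 3. Around Prkdc 4 neighbours differed by 0.0053 to 0.31 and none was called. Polm had 4 neighbours with differences from -0.14 to 0.14 and no call.

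**Figure D5:**
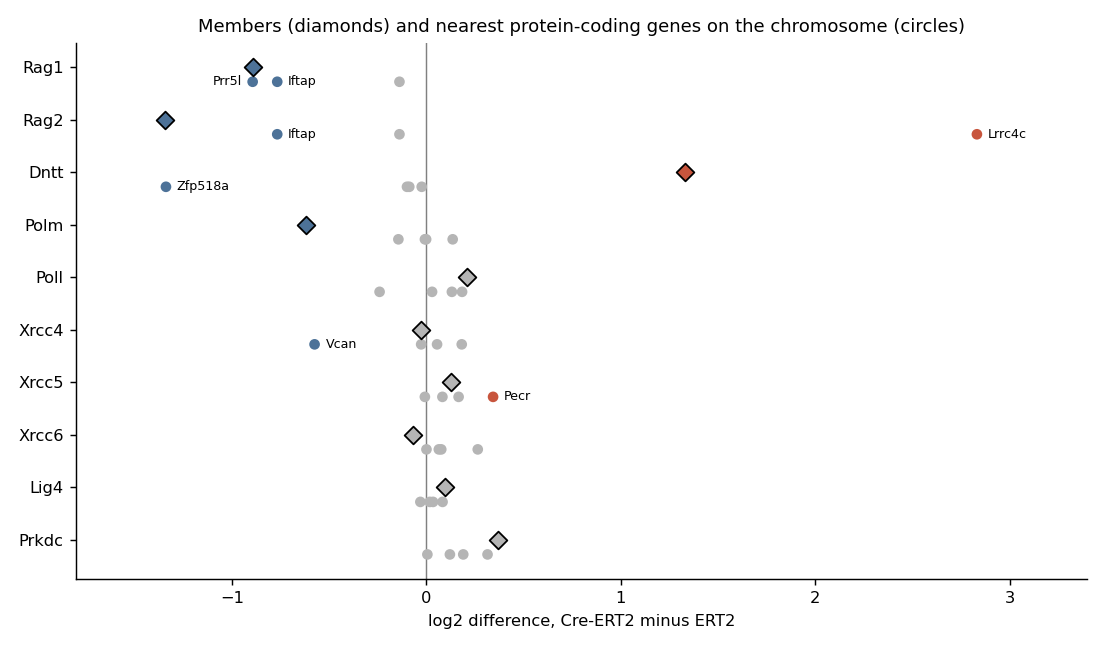
Log2 difference, Cre-ERT2 minus ERT2, of each member gene (diamonds) and of up to 4 protein-coding neighbours that are not members (circles), red where called higher, blue where called lower and grey where not called. Beside Rag1 and Rag2 the neighbours Iftap and Prr5l lie at -0.77 and -0.89 and Lrrc4c at 2.83, and beside Dntt the neighbour Zfp518a lies at -1.34.

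Genes with the most similar patterns were taken as those whose 6 log2 values, after subtraction of their own control mean, lay nearest by Euclidean distance. With 6 arrays in 2 groups, this mostly matches the size of the group difference. For Rag1 they were Aph1b, a gamma-secretase subunit, Tmem67, a cilium gene, and Ly6d, a surface antigen of lymphoid progenitors, at distances of 0.109, 0.142 and 0.168. For Rag2 they were Upk1b, Cybb, the NADPH oxidase subunit of phagocytes, and Bmpr1a, a BMP receptor, at 0.185, 0.194 and 0.230. For Dntt they were Cnn2, a calponin, Klrb1f, a lectin-like receptor, and Dkkl1, at 0.175, 0.207 and 0.212. Ly6d was no longer called on omission of ERT2 replicate 1 or of any Cre-ERT2 array (adjusted p up to 0.0767).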

How the data were processed

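Each of 6 total RNA samples, biotin-labelled by Affymetrix's standard method per the labels' protocols, went on 1 array. The authors deposited 1 intensity per probe set and array, made with RMA per the submitters' processing notes. RMA corrects background, normalises by quantiles and summarises probes, so a shift common to all genes would not be seen. The deposited intensities are linear (6.27 to 26714). Which software version and scan batches were used, and on which build probes were placed, is not known here.

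Differences were taken on log2(intensity + 1), which understates dim genes slightly. Of 35556 probe sets, 21789 name 1 gene, 1621 several and 12146 none; a gene was represented by its brightest single-gene probe set. Limma 3.58.1 in R 4.3.3 (lmFit, eBayes, no covariates) was fitted to all probe sets and samples, with Benjamini-Hochberg adjustment and a threshold of 0.05. The fit was tested on simulated data. Exact permutation tests used SciPy 1.17.1. The number of arrays limits the precision.

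Members, lists and tests were chosen with earlier results of these data known. Named genes were all members, Sox4, up to 4 genes of smallest p per list and the 3 nearest patterns of Rag1, Rag2 and Dntt; others were named after their values were seen. Promoter windows are RefSeq's. Alternatives were an intensity trend, robust fitting, the brighter probe sets, 3 normalisations, array weights, blocking on replicate number, pseudocounts of 16 or none, testing single-gene probe sets alone, averaging a gene's probe sets, requiring a fold above 1.5, and omitting 1 array at a time.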

Additional observations from a re-analysis of the deposited data

How the results depend on the processing

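Rag1, Rag2 and Dntt kept their direction in all 19 alternatives and their calls in all but 1 of them for Rag1, and Polm kept its direction in all 18 that measured it. With a minimum fold of 1.5 the differences of Rag1 (-0.89) and Polm (-0.62) did not pass, which left 1 member lower, Rag2, and 20 calls of other named genes ended too. Pax5, Parp1, Rad51c and Ighm, not called otherwise, passed in 8 of 13, 7 of 13, 6 of 13 and 5 of 12 settings that kept all arrays. Nhej1 passed in 8 of 13. Poll passed among the brighter probe sets, among single-gene probe sets and with the mean of probe sets (0.21 in each), and Prkdc passed in the latter pair (0.37) and with array weights (0.46). The number of higher members was therefore 2 among the brighter probe sets, 2 with array weights, 3 among single-gene probe sets and 3 with the mean of probe sets, and all of these but array weights test fewer features. Array weights gave 2415 higher and 1612 lower probe sets against 1143 and 1009, with the lowest weight, 0.402, on ERT2 replicate 2, and turned the uncalled difference of Xrcc4 to 0.050. Leaving out 1 array gave 606 to 1319 higher and 654 to 883 lower probe sets, 1 to 1 higher members and 2 to 3 lower members, with -1.01 to -0.81 for Rag1, -1.43 to -1.30 for Rag2, 1.26 to 1.41 for Dntt and -0.72 to -0.53 for Polm. Xrcc4, not called in any setting, lay between -0.10 and 0.061, reaching 0.061 on omission of ERT2 replicate 2 and 0.0018 on omission of Cre-ERT2 replicate 1. The replicate number as a block left 959 higher and 877 lower probe sets and the same 4 member calls, with -0.89 for Rag1 and 1.33 for Dntt; it ended the calls of Nhej1, Hmgb1, H2ax, Runx1 and Pecr (adjusted p from 0.0649 to 0.0974). Same-numbered arrays deviated together with correlations of 0.205, 0.344 and -0.049. Differently numbered arrays of opposite groups gave -0.430 to 0.325. These correlations cannot settle whether the numbers pair the samples, and the main fit used no pairing. The within-array differences of members kept their sign with a pseudocount of 16 and without any 1 array. Unless stated, the cause of a change was not tested.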
